A study of Mus musculus with 4 samples.

Results

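The Eph receptors and ephrins described here are 10 genes, 6 encoding receptors (Epha4, Epha5, Epha7, Epha10, Ephb2 and Ephb6) and 4 encoding ligands (Efna3, Efna5, Efnb2 and Efnb3). They were taken by name from a list of family members known in the wiring of the spiral ganglion, out of 18143 genes in the deposited UMI tables. The list was chosen with earlier results of these data known, so counts of its called genes do not describe an independent set. All 10 had a row, and 8 had enough molecules for a test. Efna3 with 18 UMIs and Efnb3 with 81 UMIs over all cells did not.

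The cells came from the cochleae of 4 male wild-type CBA/CaJ mice aged 9 weeks, with the dissected modiolus of each mouse pooled as a separate library. The dissection also held spiral limbus and parts of the organ of Corti. The authors' deposited annotation sorts 6713 neurons into 95 type II cells, 505 cells called putative spiral ganglion neurons, 2384 type IA cells, 1625 type IB cells and 2104 type IC cells. Type I neurons contact the inner hair cells and type II neurons the outer hair cells. The questions put to the data are which Eph and ephrin genes differ between type II and type I neurons, between the putative cells and type I, and among the type I subtypes.

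Eph receptors are receptor tyrosine kinases that bind ephrins on a neighbouring cell, so they act at contacts between cells. A ephrins are tethered to the membrane by a lipid anchor and B ephrins span it. Binding signals both into the cell with the receptor and back into the cell with the ephrin, and in growing axons it often leads to repulsion. EphA4 can bind ligands of both classes. In the developing mouse cochlea, EphA4 with ephrin-A5 has been studied in the choice of afferents between inner and outer hair cells, EphA4 with ephrin-B2 in the bundling of spiral ganglion axons, and EphA7 in the growth of their peripheral processes.

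Of the 8 listed genes tested, 4 differed between type II and type I neurons, where 23.4% of all 13005 tested genes did. The A ephrin gene Efna5 was 22.0-fold higher in type II neurons and the receptor gene Epha7 was 2.56-fold higher, a call that ended without the type II cells that had no UMI of the type II marker Prph. The receptor gene Epha4 was 3.06-fold lower and the B ephrin gene Efnb2 was 3.26-fold lower. Among the type I subtypes, Epha4 stepped down from IA through IB to IC, Efnb2 was lowest in IC, and Epha7 was lowest in IA.

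The genes lie on separate chromosomes or far apart (mouse build GRCm38). Efna5 spans 62604184 to 62881317 on chromosome 17, minus strand. Epha4 spans 77367185 to 77515088 on chromosome 1, minus strand. Efnb2 spans 8617434 to 8661242 on chromosome 8, minus strand. Epha7 spans 28813131 to 28967499 on chromosome 4, plus strand, the chromosome that also holds Epha10 and Ephb2. Epha5 is on chromosome 5, Ephb6 on 6, Efna3 on 3 next to Efna1 and Efna4, and Efnb3 on 11. All are protein-coding, and the UMIs count molecules captured near their 3′ ends, with no position given inside the gene.

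The promoters of the 4 genes called between type II and type I are shown, with Efna5 and Epha7 higher in type II and Epha4 and Efnb2 lower. They are RefSeq windows of 300 bases (build GRCm38.p6), written 5′ to 3′ on the strand of the gene, from 250 bases before its annotated start to 50 after. Capitals would mark a match to one of 3 short motifs, and none of these windows holds a match, so all letters are lower case.
Efna5, chr17:62881268-62881567, minus strand: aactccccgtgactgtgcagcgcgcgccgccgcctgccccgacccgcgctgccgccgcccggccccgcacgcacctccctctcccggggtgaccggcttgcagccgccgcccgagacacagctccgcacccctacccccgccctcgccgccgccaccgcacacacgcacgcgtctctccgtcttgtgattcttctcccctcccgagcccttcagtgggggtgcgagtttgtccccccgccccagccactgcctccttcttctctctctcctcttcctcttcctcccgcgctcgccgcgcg
Epha7, chr4:28812881-28813180, plus strand: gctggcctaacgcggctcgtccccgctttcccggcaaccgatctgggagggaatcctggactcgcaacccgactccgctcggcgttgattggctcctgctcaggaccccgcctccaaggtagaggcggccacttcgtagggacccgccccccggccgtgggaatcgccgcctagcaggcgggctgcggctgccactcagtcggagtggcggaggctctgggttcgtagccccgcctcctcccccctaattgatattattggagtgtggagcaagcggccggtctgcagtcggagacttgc
Epha4, chr1:77515039-77515338, minus strand: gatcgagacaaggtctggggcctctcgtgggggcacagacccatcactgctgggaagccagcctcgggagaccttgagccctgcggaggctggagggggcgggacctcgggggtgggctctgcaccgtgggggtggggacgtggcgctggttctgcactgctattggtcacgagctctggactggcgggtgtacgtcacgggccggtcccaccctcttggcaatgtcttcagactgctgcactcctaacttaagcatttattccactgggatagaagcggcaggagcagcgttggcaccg
Efnb2, chr8:8661193-8661492, minus strand: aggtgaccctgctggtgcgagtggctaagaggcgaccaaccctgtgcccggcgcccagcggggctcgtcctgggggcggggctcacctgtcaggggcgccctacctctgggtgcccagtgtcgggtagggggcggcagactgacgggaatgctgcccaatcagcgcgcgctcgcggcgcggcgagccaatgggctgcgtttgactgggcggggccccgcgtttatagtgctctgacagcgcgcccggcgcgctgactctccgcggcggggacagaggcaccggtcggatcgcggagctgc

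The motifs searched on both strands were GATAA for GATA factors, then TAATTA for homeodomain factors, and TGTGGT for RUNX factors. Of all 32851 RefSeq promoter windows of this length, 25.4% held the GATA motif, 5.29% the homeodomain motif and 16.8% the RUNX motif. A promoter window was matched for 9 of the 10 genes, all but Efnb3. All 4 windows shown are rich in CpG. Efna5 has 38 CpG pairs, Epha7 has 28, Epha4 has 17 and Efnb2 has 35, against a median of 7 over all windows.

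UMIs were summed per mouse and population, and a level is the gene's UMIs per 1000000 UMIs of its sum (CPM), not divided by transcript length. The 4 mice gave between 15151343 and 27309045 UMIs, and type II neurons held 1288798 in all. Of all barcodes, 26 occurred in more than 1 library, in 52 cells. Labels went with their markers, with 6 of 6 type II markers higher in type II than in type I neurons and 5 of 5 type I markers lower. Some markers of other cells were higher in type II or putative cells, and others were not. Of 6 satellite glia markers, 4 were called higher in each population. Of 6 Schwann cell markers 0 were called higher, with 3 called lower in type II and 2 in putative cells. Of 4 macrophage markers 0 were called in either. In type II cells, 0 supporting cell, fibroblast, endothelial or red cell markers were called higher. Of 6 hair cell markers only 1 had enough UMIs for a test, and it was not called, so the other hair cell markers could not be called. The sum of 6 satellite glia markers was 8622 ± 2075 CPM in type II cells and 8124 ± 434 in putative cells, against 1239 to 1315 in the type I subtypes (SD, n = 4 mice). The sum of 8 immediate early and dissociation genes was 3464 ± 504 CPM in type II and 4065 ± 566 in putative cells, against 1636 to 1841 in type I, and 8 of 8 were called higher in both populations. In putative cells, 6 supporting cell and spiral limbus markers summed to 320 ± 43.9 CPM, against 106 to 119 CPM in type I, with 5 of 6 called higher. There 5 fibroblast and bone markers summed to 341 ± 155 CPM, against 110 to 114 CPM in type I, with 3 of 5 called higher. Of 4 red cell markers 3 were called higher in putative cells, and of 4 neuron markers 3 were called lower in putative and in type II cells. Hair cell markers summed to 8.33 ± 4.99 CPM in type II cells, where type I had 2.20 to 3.06 CPM, with Myo7a, Ocm and Pou4f3 at 0 UMIs. The labels were assigned by the authors from these same libraries, so differences between populations are not independent of the labels. The mice are separate animals, and cells were not counted as replicates.

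Efna5, the gene of ephrin-A5, had the largest difference among the 8 listed genes tested. Type II cells of mice 1 to 4 stood at 76.8, 137, 177 and 164 CPM. Type IA cells stood at 4.77, 6.89, 3.89 and 4.79 CPM, type IB cells at 6.61, 5.56, 5.64 and 8.09 CPM, and type IC cells at 6.29, 4.25, 5.47 and 7.65 CPM. Every type II value lay far above every type I value. The log2 difference of type II from the mean of the type I subtypes was 4.46 ± 0.21 (SE), with an adjusted p of 1.5e-23 by edgeR's quasi-likelihood test, and it was higher in 4 of 4 mice. In type II the 165 UMIs of Efna5 lay in 60 of 95 cells, with at most 12 in a single cell (7.27% of them). Against each subtype taken alone the edgeR log2 difference was 4.58 ± 0.23 for IA, 4.32 ± 0.23 for IB and 4.48 ± 0.22 for IC, in comparisons where 24.7%, 23.9% and 22.5% of all genes passed.

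Epha7, a receptor that binds A ephrins, was the other listed gene that was higher. Its levels in type II were 78.7, 76.0, 99.9 and 40.9 CPM in mice 1 to 4, against 22.3 to 36.1 CPM over all type I sums. The lowest type II value, in mouse 4, was above the highest type I value. The log2 difference was 1.36 ± 0.17 (edgeR adjusted p = 1.4e-08, higher in 4 of 4 mice). Without type II cells that had no Prph UMI it was 0.62 (edgeR adjusted p = 0.085).

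Epha4, the receptor that binds both ligand classes, went the other way. Type II cells held 29.3, 7.59, 51.2 and 49.98 CPM in mice 1 to 4, where the value of mouse 2 rests on 1 UMI. Every type I sum held more, at 84.1 to 152 CPM. The log2 difference was -1.61 ± 0.20 (edgeR adjusted p = 9.8e-09, lower in 4 of 4 mice). It was larger against IA (-1.93 ± 0.20) than against IC (-1.30 ± 0.22), as Epha4 itself differs between these subtypes.

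Efnb2, which encodes the transmembrane ligand ephrin-B2, fell with Epha4. Its levels in type II were 29.3, 7.59, 15.4 and 22.7 CPM, against 42.6 to 91.0 CPM over all type I sums. The groups did not overlap, and the log2 difference was -1.71 ± 0.24 (edgeR adjusted p = 1.2e-07, lower in 4 of 4 mice). Of the 28 UMIs in type II, 16 came from mouse 1. The plot of levels by population and mouse shows these genes beside the rest of the list.

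**Figure D1:**
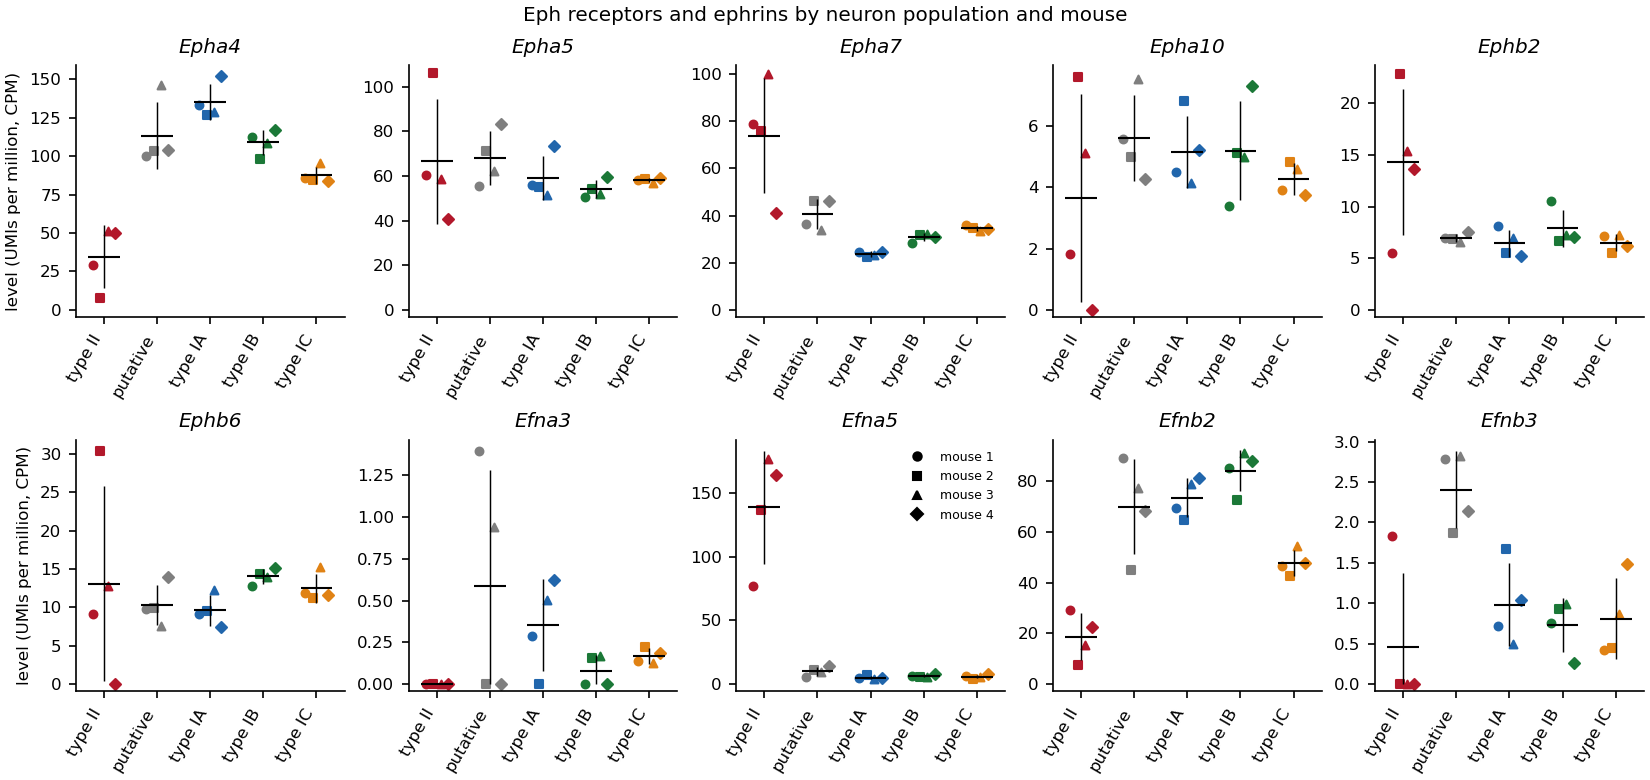
Level of each of the 10 genes in CPM (vertical axes, each from 0 and with its own range) by population, with 1 symbol per mouse, a bar for the mean and a line for ± SD over 4 mice. Efna5 stands at 76.8 to 177 CPM in type II and under 14 CPM in every other population, while Epha4 and Efnb2 are lowest in type II.

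Of the 8 genes tested, 4 passed the threshold (adjusted p under 0.05) in the type II comparison, with Efna5 and Epha7 higher and Epha4 and Efnb2 lower, where 23.4% of all 13005 tested genes passed (11.9% higher and 11.5% lower). The median log2 difference of the 8 was -0.06, against -0.05 over all genes. The remaining 4 did not pass. Epha5, which also binds A ephrins, had a log2 difference of 0.08 with an edgeR 95% interval of -0.27 to 0.42, which excludes the difference of Epha7. For the others the counts were low in type II, with 15 UMIs of Ephb2, 14 of Ephb6 and 4 of Epha10, and the intervals were wide. Ephb2 stood at 0.61 (-0.16 to 1.39), Ephb6, a receptor without kinase activity, at -0.20 (-0.99 to 0.59), and Epha10, which also lacks it, at -0.61 (-1.95 to 0.73). Changes within these intervals were not detectable at this depth.

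**Figure D2:**
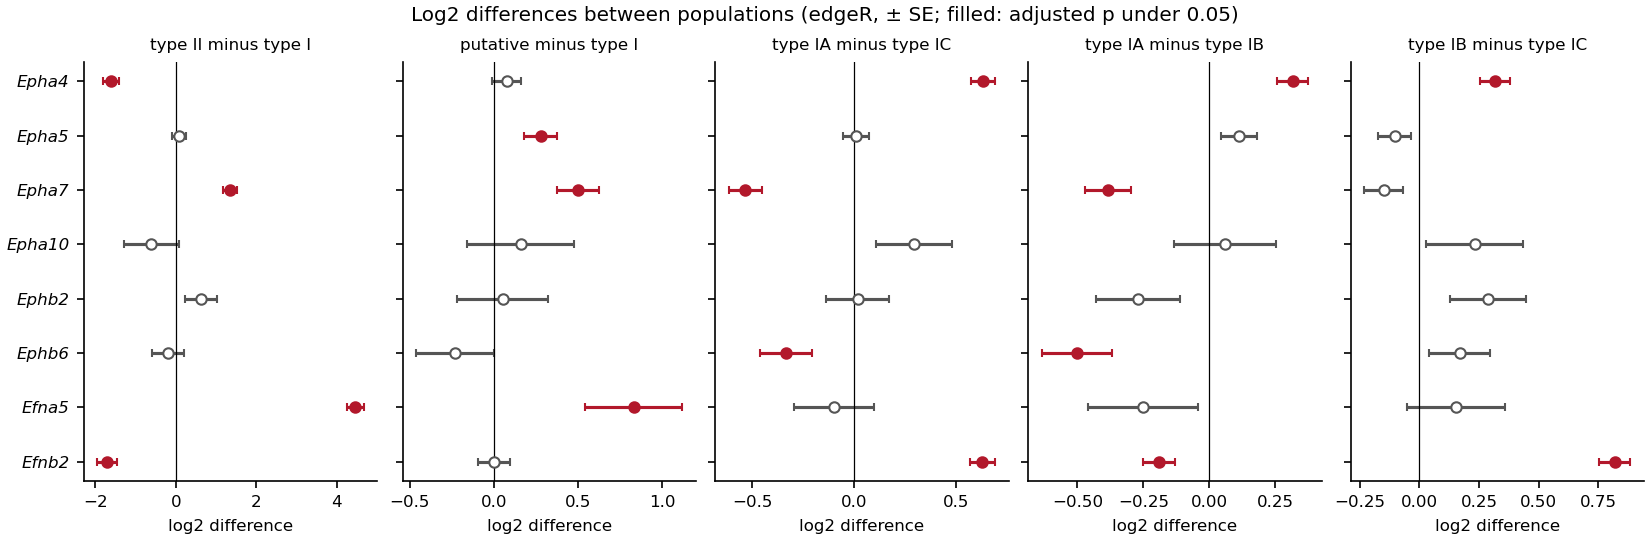
Log2 difference ± SE (horizontal axis, with its own range in each panel) of the 8 tested genes in 5 comparisons, with filled red points where the edgeR adjusted p was under 0.05. Efna5 lies at 4.46 in type II minus type I, and Epha4 lies above 0 in all 3 comparisons among type I subtypes.

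The family's makeup differed with these genes. Among UMIs of the 8 ephrin genes, Efna5 took 64.8% ± 5.19 in type II (SD, n = 4), against 9.66% ± 4.27 in putative cells and 5.12% to 8.09% in the type I subtypes. Efnb2 took 10.2% ± 8.12 in type II, against 63.3% ± 7.04 in putative cells and 65.7% to 74.2% in type I. The main ephrin transcript was thus Efna5 in type II and Efnb2 in every other population. Summed A ephrin UMIs stood at 166 ± 52.1 CPM in type II and 18.4 to 22.8 CPM in type I, while summed EphA receptor UMIs were at 188 ± 34.0 CPM in type II, with IA, IB and IC between 191 and 227 CPM. Within the receptors Epha4 took 15.6% ± 10.3 of UMIs in type II and Epha7 took 30.5% ± 7.58. In type I Epha4 took 37.0% to 49.7% and Epha7 8.77% to 14.7%.

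**Figure D3:**
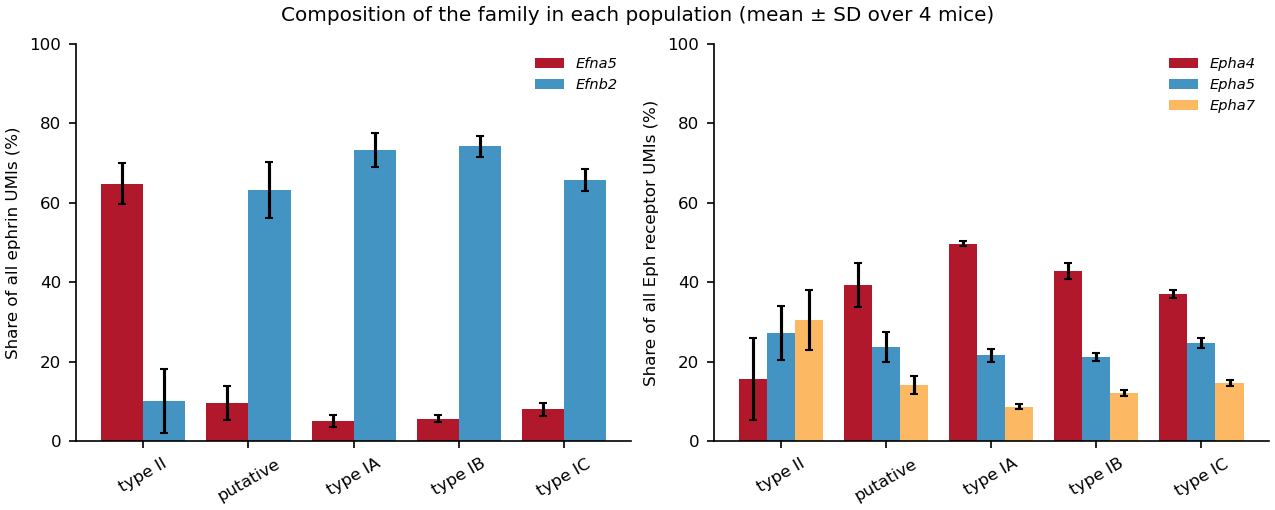
Share of all ephrin UMIs (left, 8 genes) and of all Eph receptor UMIs (right, 13 genes) taken by the named genes in each population, as mean ± SD over 4 mice, on axes from 0 to 100%. Efna5 takes 64.8% of ephrin UMIs in type II, and Efnb2 takes 63.3% to 74.2% in the other populations.

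Not all cells labelled type II were alike in these genes. Prph, the intermediate filament gene long used to recognise type II neurons, had a UMI in 58 of the 95 cells. Those 58 cells held 148 of the 165 Efna5 UMIs. Efna5 stood at 255, 196, 278 and 219 CPM in them, against 12.5, 40.0, 51.5 and 16.5 CPM in the 37 cells with no Prph UMI, so the cells with Prph were higher in each mouse. The cells with no Prph UMI lay above the type I sums of the same mice, but held only 17 Efna5 UMIs in all. They numbered 5 in mouse 2 and 5 in mouse 4, so values per mouse rest on few molecules. Their difference from type I was not tested.

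Epha7 was ordered the opposite way, with 62.0, 36.7, 55.6 and 37.6 CPM in type II cells with a Prph UMI and 84.7, 140, 155 and 49.5 CPM in those without. Epha4 averaged 23.3 ± 14.6 CPM with Prph and 46.7 ± 37.5 CPM without, and Efnb2 averaged 8.34 ± 6.33 CPM with Prph and 31.0 ± 15.2 CPM without (SD, n = 4). The sum of the 5 type I markers was 799 ± 74.2 CPM in the cells with Prph and 1813 ± 609 CPM in those without, and the satellite glia sum was 13451 ± 689 and 2892 ± 587 CPM in the same order. The sum of the other 5 type II markers was 1568 ± 312 CPM with Prph and 507 ± 192 CPM without. Median depth was 9911 UMIs per cell with Prph and 15248 without. The part of depth and of other cells' RNA in these levels was not tested.

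With the 37 cells left out, the type II minus type I log2 difference of Efna5 was 5.25, that of Epha4 -2.28 and that of Efnb2 -2.92, all still called. Epha7 was then no longer called, as given above. Ephb2, at 1.36, was called there (edgeR adjusted p = 0.021). Without cells holding 3 or more UMIs of the satellite glia gene Fabp7, where mouse 4 was left out of type II with 9 cells, the values were 4.09 for Efna5, 1.61 for Epha7, -1.41 for Epha4 and -1.77 for Efnb2, and each was called. The 4 genes kept their direction under each of 16 alternatives and with each mouse left out.

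**Figure D4:**
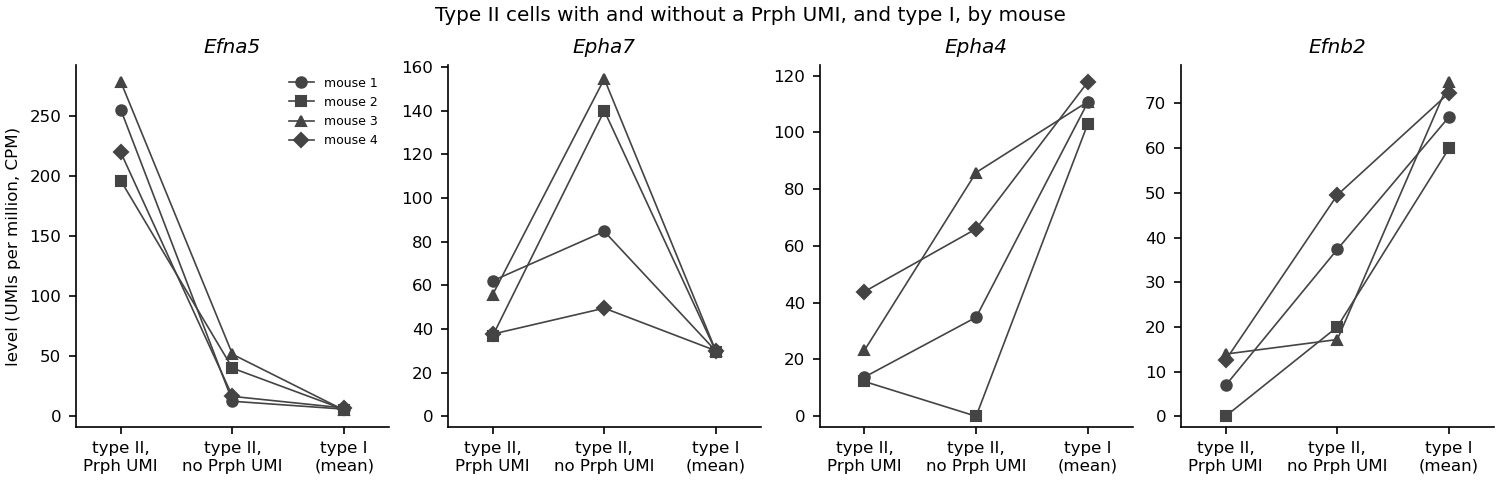
Level in CPM (vertical axes with own ranges) of 4 genes in type II cells with a Prph UMI, in type II cells with none and in type I (mean of IA, IB and IC), with 1 line per mouse. Efna5 is highest with Prph in each mouse (196 to 278 CPM), and Epha7 is highest in the type II cells with no Prph UMI.

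**Figure D5:**
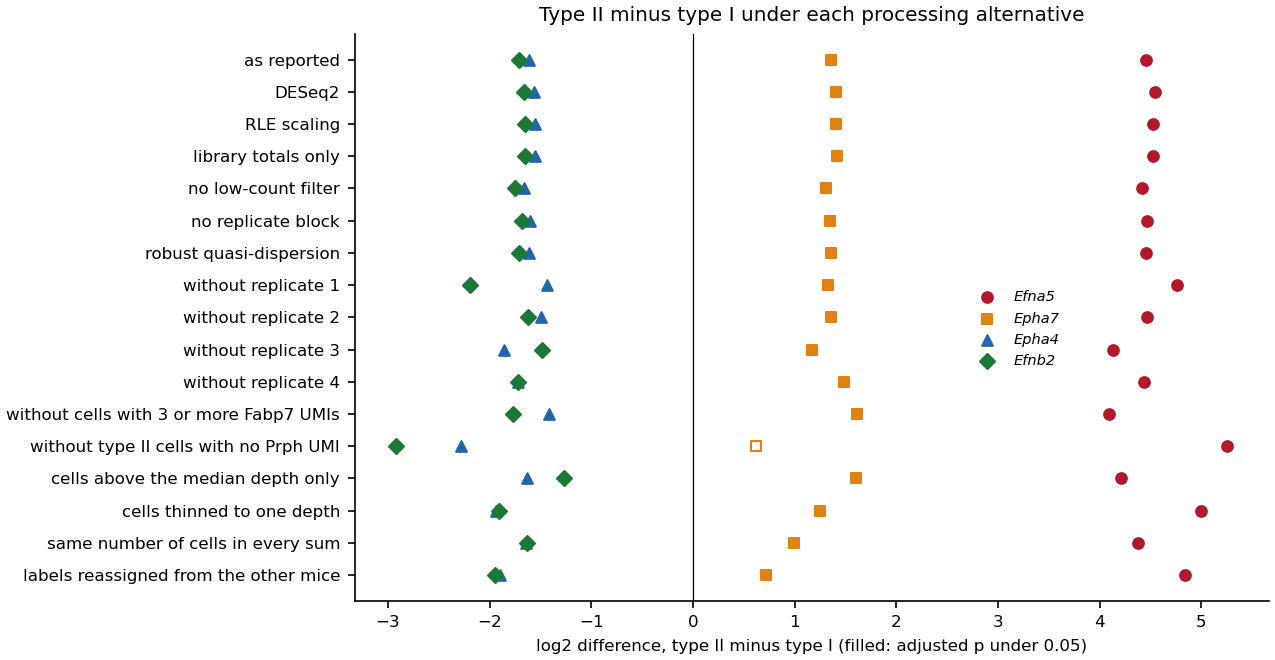
Log2 difference of type II minus type I (horizontal axis) for 4 genes as reported and under each of 16 processing alternatives (rows), with filled symbols where the adjusted p was under 0.05. Efna5 stays between 4.09 and 5.25, and Epha7 is open at 0.62 without type II cells that have no Prph UMI.

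Shares of cells with a UMI were also set side by side. A UMI of Efna5 was found in 62.9% ± 5.21 of type II cells (SD, n = 4 mice) and in 7.59% ± 0.80 of putative cells, against 6.05% to 7.78% of type I cells. After each cell was thinned to 4215 UMIs, the shares were 41.6% ± 15.5 in type II, 5.75% ± 2.21 in putative and 1.69% to 2.39% in type I cells. Thinning left out 5 type II, 237 putative, 205 type IA, 98 type IB and 126 type IC cells as too shallow. Median depth was 10862 UMIs in type II, 4725 in putative, 12400.5 in IA, 13334 in IB and 14403 in IC cells. For background, the hair cell gene Slc17a8, which these neurons should lack, had a UMI in 0.74% of type II, 0.88% of putative and 0.82% to 0.87% of type I cells, and Otof, another hair cell gene, in 4.22% of type II, 1.19% of putative and 0.88% to 1.07% of type I cells. The red cell gene Hbb-bs had one in 89.5% to 97.2% of the cells of every population, and the source of these UMIs was not tested.

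A UMI of Epha4 was found in 28.3% ± 15.9 of type II cells, against 76.0% of IA, 70.3% of IB and 65.8% of IC cells, and thinned shares were 10.8% for type II, with IA, IB and IC between 32.0% and 44.6%. Thinned shares of Efnb2 were 8.09% ± 6.26 in type II cells and between 18.8% and 31.2% in the subtypes, and those of Epha7 were 20.98% ± 11.01 in type II cells and between 9.68% and 14.2% in the subtypes. Ligand and receptor RNA could be found in the same cell. Among the 95 type II cells 19 had UMIs of both Efna5 and Epha4, 41 of Efna5 alone, 11 of Epha4 alone and 24 of neither.

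Among type I subtypes, Epha4 was highest in IA and lowest in IC. Type IA cells of mice 1 to 4 held 133, 127, 129 and 152 CPM, type IB cells 113, 98.0, 108 and 117 CPM, and type IC cells 86.0, 84.5, 95.3 and 84.1 CPM. The 3 ranges did not overlap. Epha4 was 1.55-fold higher in IA than in IC (log2 difference 0.63 ± 0.06, edgeR adjusted p = 4.8e-13), higher in IA than in IB (0.32 ± 0.06, edgeR adjusted p = 5.1e-05) and higher in IB than in IC (0.32 ± 0.06, edgeR adjusted p = 0.00017), each in 4 of 4 mice.

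Efnb2 did not follow the same order. Type IA cells held 69.5, 64.7, 78.8 and 81.4 CPM, type IB cells 85.1, 72.6, 91.0 and 88.0 CPM, and type IC cells 46.4, 42.6, 54.7 and 47.7 CPM. Type IC lay below both others without overlap. Its log2 difference was 0.63 ± 0.06 for IA minus IC (edgeR adjusted p = 7.8e-12) and 0.82 ± 0.07 for IB minus IC (edgeR adjusted p = 1.4e-14). IA was below IB by a small margin in 4 of 4 mice, though the ranges overlapped (-0.19 ± 0.06, edgeR adjusted p = 0.023).

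Epha7 ran against Epha4. Type IA cells held 24.7, 22.3, 23.5 and 24.6 CPM, type IB cells 28.5, 31.8, 32.2 and 31.1 CPM, and type IC cells 36.1, 34.5, 33.6 and 34.3 CPM. It was lower in IA than in IC (-0.53 ± 0.08, edgeR adjusted p = 4.7e-07) and than in IB (-0.38 ± 0.09, edgeR adjusted p = 0.0011). For IB minus IC the log2 difference was -0.15 ± 0.08, which did not pass (edgeR adjusted p = 0.28). Ephb6 was also lower in IA, at 9.62 ± 2.00 CPM against 14.1 ± 0.96 in IB and 12.5 ± 1.87 in IC (SD, n = 4; log2 difference -0.50 ± 0.13 from IB and -0.33 ± 0.13 from IC).

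For IA minus IC 4 of 8 tested genes passed, 2 higher and 2 lower, where 32.3% of all genes did (16.3% higher and 16% lower). For IA minus IB 4 of 8 passed, 1 higher and 3 lower, where 15.6% did (7.4% higher and 8.19% lower). For IB minus IC 2 of 8 passed, both higher, where 11.8% did (6.37% higher and 5.47% lower). The Ephb6 call of IA minus IC ended without any of the mice, at -0.33 without mouse 1, -0.37 without mouse 2, -0.35 without mouse 3 and -0.28 without mouse 4 (edgeR adjusted p = 0.10, 0.069, 0.094 and 0.094), and the Efnb2 call of IA minus IB ended without mouse 1 (-0.16) or mouse 3 (-0.18, edgeR adjusted p = 0.12 for both). That Efnb2 call held in 7 of 15 alternatives. It also ended with DESeq2, without the mouse block, above the median depth, with cells thinned, with equal cells and with labels reassigned. For IA minus IB the Ephb6 call held in 11 of 14 alternatives and the Epha7 call in 12 of 15. Both ended with cells thinned and with labels reassigned, Ephb6 also without the mouse block and Epha7 also with equal cells. When labels were reassigned from the other mice without family genes, Efnb2 stood at 0.06 and Epha7 at 0.04 for IA minus IB. Without the mouse block Epha4 was not called for IA minus IB (edgeR adjusted p = 0.051) or IB minus IC (0.065).

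The cells that the authors call putative stood close to type I in most of the list. Epha4 was at 100, 104, 146 and 104 CPM in mice 1 to 4, inside the range of the type I sums, and Efnb2 was at 89.2, 44.9, 77.3 and 68.5 CPM. Their log2 differences from the type I mean were 0.07 (95% interval -0.09 to 0.24) and 0.00 (-0.19 to 0.19). A difference of the size seen in type II lies outside both intervals.

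Of the 8 tested genes 3 passed against type I, all higher, where 23.3% of all genes did (14.2% higher and 9.13% lower). Epha7 was at 36.2, 46.2, 33.9 and 46.0 CPM, above the type I mean in 4 of 4 mice (log2 difference 0.50 ± 0.12, edgeR adjusted p = 0.002). Epha5 averaged 68.1 ± 12.0 CPM in putative cells and 57.1 ± 4.82 CPM in type I (0.28 ± 0.10, edgeR adjusted p = 0.034). Efna5 was at 5.57, 11.2, 9.43 and 13.9 CPM, higher in 3 of 4 mice (0.83 ± 0.29, edgeR adjusted p = 0.031), while type II lay 12.4-fold above the putative cells. Without mouse 2 none of the 3 was called, with Epha7 at 0.39, Epha5 at 0.24 and Efna5 at 0.76 (edgeR adjusted p = 0.10, 0.22 and 0.16). Epha5 and Efna5 were also not called without mouse 3 (0.30 and 0.80, edgeR adjusted p = 0.066 for both) or without mouse 4 (0.24 and 0.76, edgeR adjusted p = 0.13 for both). Without cells holding 3 or more Fabp7 UMIs Efna5 was at 0.55 (edgeR adjusted p = 0.26), while Epha7 (0.49) and Epha5 (0.33) were called. In cells above the median depth Efna5 was at 0.34, and with cells thinned to one depth Epha7 was at 0.39 and Epha5 at 0.04, none of them called. The putative cells also carry the satellite glia, immediate early, supporting cell, fibroblast and red cell markers given above. The part of these lists other than satellite glia was not tested.

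Across all 5 populations, the order of mean levels could be read in few places. Of 32 neighbouring pairs of populations over the 8 tested genes, 5 differed with a call and no overlap. These were IB above IC and IC above type II for Epha4, IB above IA for Epha7, type II above putative for Efna5, and IC above type II for Efnb2. For Epha5, Epha10, Ephb2 and Ephb6 no neighbours differed. Epha5 was nearly level, with means of 54.1 to 68.1 CPM, while Epha10 had 3.64 to 5.60 CPM, Ephb2 6.43 to 14.3 CPM and Ephb6 9.62 to 14.1 CPM.

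The 2 genes too rare to test had few molecules anywhere. Efna3, an A ephrin gene, had 0 UMIs in type II, which allows a level of up to 2.33 CPM (3 counts over the population's UMIs, counting error only), 2 in putative cells, 9 in IA, 2 in IB and 5 in IC. Efnb3, a B ephrin gene best known from the midline of the developing spinal cord, had 1 UMI in type II, 10 in putative cells, 31 in IA, 17 in IB and 22 in IC. Its mean was 2.41 ± 0.48 CPM in putative cells, with 1.87 to 2.83 CPM per mouse, against 0.73 to 0.99 CPM in the type I subtypes.

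Of the other 12 genes of the family, 11 had a row and 8 were tested, and Epha6 was not analysed here. In type II against type I, 2 of these 8 passed, both higher, where 23.4% of all genes passed (11.9% higher). Efna1 was at 22.4 ± 3.03 CPM in type II and 11.5 ± 1.38 in type I (log2 difference 0.93 ± 0.29, edgeR adjusted p = 0.014), and Efnb1, a B ephrin gene, at 25.2 ± 12.9 and 5.74 ± 0.57 CPM (1.73 ± 0.36, edgeR adjusted p = 0.00018). Without cells that had 3 or more Fabp7 UMIs, Efna1 stood at 0.66 and Efnb1 at 0.99, and neither was called (edgeR adjusted p = 0.35 and 0.28). Efna1 was not called without mouse 3 (0.79) or mouse 4 (0.91) or with cells thinned (0.33) either. In cells above the median depth neither gene was called, with Efna1 at 0.73 and Efnb1 at 0.72.

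In IA minus IC, 4 of the 8 passed, where 32.3% of all genes did. Epha3 was at 0.56 ± 0.28 CPM in IA and 3.24 ± 0.26 in IC (-2.43 ± 0.34), and Efna2, an A ephrin gene, at 1.02 ± 0.21 and 2.73 ± 0.38 CPM (-1.33 ± 0.31). Ephb1 was at 3.93 ± 1.30 CPM in IA and 1.39 ± 0.38 in IC (1.48 ± 0.27), and Efna1 was higher too (0.55 ± 0.12). All 4 kept their call under every alternative in which they were tested. In IA minus IB 2 of 8 passed, where 15.6% of all genes did, with Epha3 (-1.65 ± 0.40) and Efna2 (-1.19 ± 0.34) lower. Epha3 was not called with labels reassigned (-0.93), and Efna2 not without mouse 3 (-1.07) or without the mouse block (-1.22). In IB minus IC 1 of 8 passed, where 11.8% of all genes did, with Efna1 higher (0.58 ± 0.12). It was not called without mouse 2 (0.40), above the median depth (0.44) or thinned (0.68).

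In putative cells against type I, 4 of the 8 passed, all higher, where 23.3% of all genes did (14.2% higher). Epha3 stood at a log2 difference of 1.501 ± 0.42, Ephb4, an EphB receptor also used by blood vessels, at 1.59 ± 0.39, Efna2 at 1.13 ± 0.42 and Efnb1 at 0.71 ± 0.27. Endothelial markers summed to 39.1 ± 15.0 CPM in putative cells, against 23.2 to 25.5 CPM in type I, and their part was not tested. Epha3 was not called without mouse 2 (1.37), Ephb4 not without mouse 3 (1.03), Efna2 not without mouse 1 (1.01), mouse 3 (0.78) or mouse 4 (1.25), and Efnb1 not without mouse 2 (0.70), mouse 3 (0.65) or mouse 4 (0.73). Without cells holding 3 or more Fabp7 UMIs, Efna2 (0.99) and Efnb1 (0.51) were not called. In cells above the median depth Epha3 (1.34), Efna2 (0.92) and Efnb1 (0.12) were not, and with labels reassigned Ephb4 (0.62) and Efna2 (0.96) were not.

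A list of 57 signalling partners of the family, of which 52 were tested, was counted as well. It holds adaptors, kinases, GTPase regulators and scaffolds known to act with Eph receptors or ephrins. In type II against type I, 20 of 52 passed (13 higher, 7 lower), where 23.4% of all genes did (11.9% higher and 11.5% lower), with a median log2 difference of 0.00 against -0.05 over all genes. Ngfr, the p75 receptor that can act with A ephrins in retinal axons and is itself a type II marker here, was at 489 ± 87.4 CPM in type II and 108 ± 6.47 in type I (2.09 ± 0.09). Cblb, a ubiquitin ligase gene, was at 40.0 ± 7.83 and 9.99 ± 1.28 CPM (1.93 ± 0.24). Rgs3, which encodes a regulator of G protein signalling that binds B ephrins, was at 74.8 ± 19.1 CPM in type II and 18.9 ± 2.16 in type I (1.85 ± 0.20). Grip2, a PDZ scaffold gene, was lower, at 1.78 ± 2.21 and 11.2 ± 0.93 CPM (-2.86 ± 0.73). Rgs3 was at 1.05 and not called with cells thinned (edgeR adjusted p = 0.058), and Grip2 was not called in cells above the median depth (edgeR adjusted p = 0.052).

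Among type I subtypes, 20 of 52 partners passed in IA minus IC, 12 higher and 8 lower, where 32.3% of all genes did. Pak1, a kinase driven by Rac and Cdc42, was at 78.6 ± 4.42 CPM in IA and 191 ± 3.27 in IC (-1.26 ± 0.05), and Anks1b, an ankyrin repeat adaptor gene, at 10.7 ± 1.52 and 31.0 ± 4.05 CPM (-1.51 ± 0.11). Tiam1, an activator of Rac, was higher in IA, at 18.5 ± 2.82 against 8.23 ± 1.13 CPM in IC (1.18 ± 0.12), as was the adaptor gene Nck2 (1.13 ± 0.26). In IA minus IB 12 of 52 passed, 6 in each direction, where 15.6% of all genes did. Without mouse 3, 7 passed, where 1334 of 13009 genes did. Tiam1 was higher in IA (1.24 ± 0.13), and Anks1b (-0.81 ± 0.12), Pak1 (-0.80 ± 0.06) and Vav3 (-0.55 ± 0.17) were lower. The Vav3 call ended without mouse 2 (-0.46) or mouse 4 (-0.47), with labels reassigned (-0.13), with cells thinned (-0.28), above the median depth (-0.50) and without the mouse block (-0.55). In IB minus IC 12 of 52 passed, 8 higher and 4 lower, where 11.8% of all genes did, with Rgs3 (0.76 ± 0.11), Sdcbp, the PDZ protein syntenin (0.67 ± 0.05), and Ngfr (0.48 ± 0.06) higher and Anks1b lower (-0.71 ± 0.10).

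In putative cells 13 of 52 partners passed against type I, 7 higher and 6 lower, where 23.3% of all genes did. The adaptor gene Grb10 was at 6.53 ± 1.69 CPM in putative cells and 1.02 ± 0.19 in type I (2.67 ± 0.40). Kalrn (0.98 ± 0.29) and Dock1 (0.81 ± 0.25), and Spred1, an inhibitor of the Ras pathway (0.70 ± 0.12), were also higher. Kalrn and Dock1 were not called without mouse 2 (0.98 and 0.40), without cells holding 3 or more Fabp7 UMIs (0.71 and 0.59) or with cells thinned (0.67 and 0.27), and Kalrn not in cells above the median depth (0.90). The putative count of partners was 8 without the Fabp7 cells and 3 with cells thinned. Over all genes the calls also fell, to 2234 of 13256 and 1058 of 11043 in that order, from 3031 of 13005 as reported.

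Over the 20 sums of mouse and population, the genes whose log2 CPM followed Efna5 most closely were Bex1, Th and Prph (Pearson r = 0.98 for each). Th and Prph are among the type II markers. Those closest to Epha4 were Adarb1, Adssl1 and Jakmip3 (0.97 for each), those closest to Efnb2 were Kcnk1 (0.97), Syt7 (0.97) and Msl3 (0.96), and those closest to Epha7 were Serbp1 (0.92), Rnase4 (0.92) and Cldnd1 (0.91). Epha5 was followed by Hexim1 (0.91), Plpp2 (0.90) and Sgpl1 (0.90), and Epha10 by Prkci, Adamtsl5 and Fbxw11 (0.96 for each). Ephb2 was followed by H2-DMb1 (0.93), Hps4 (0.93) and Ilf2 (0.92), and Ephb6 by St3gal4 (0.97), Eif2b1 (0.97) and Pom121 (0.97). Within the list, Epha4 and Efnb2 went together (0.91), while Efna5 and Efnb2 went apart (-0.90). These values describe 12957 genes over sums that share libraries and populations. In type II Epha10 had 4 UMIs, Ephb2 15 and Ephb6 14, so their correlations rest there on few molecules.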

How the data were processed

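Single neurons of 4 mice were captured with 10x Genomics v2 chemistry, which counts molecules by UMI. The authors deposited a table of raw UMI counts for each mouse, not normalized, and an annotation of every cell. Cell Ranger 2.0.1, Seurat 1.4 and the build mm10 are named in the submitters' processing notes. How cells were filtered, labelled and cleared of doublets is not stated there, and no doublet caller was run. Adding the counts of all cells of a mouse and population gave 20 sums. A joint edgeR model (version 4.0.16, R 4.3.3) used TMM scaling after filterByExpr, which kept 13005 genes, and its quasi-likelihood test. The mouse was a block, since each mouse gave every population. Adjusted p-values are Benjamini-Hochberg over all tested genes, two-sided, with a threshold of 0.05. Each SE follows from the log2 difference and the F value. "Type I" is the unweighted mean of IA, IB and IC. Alternatives were DESeq2 1.42.0, other scalings, no filter, no block, each mouse left out, subsets of cells, thinning, equal numbers of cells, and labels reassigned by the nearest centroid of the other mice without family genes. The fit was also run on simulated counts with a fixed dispersion and no mouse effect. That run cannot show how the fit handles the spread and shared mice of the real sums.

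The members and lists were chosen with earlier results of these data known. All 10 members are named, other family genes where called, and of the partners up to 4 per comparison with the largest called difference, at least 20 UMIs and the same direction in every mouse. The 3 genes most like a member were taken from tested genes with at least 50 UMIs, on log2 CPM with a prior count of 2, centred per mouse. Correlations are given as descriptions. Floors on counts cover counting error only. The 95% intervals come from the edgeR log2 difference and its SE, and so do not rest on counting error alone. The deposited tables that combine the mice were not used. Coordinates are from GENCODE for GRCm38.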

Additional observations from a re-analysis of the deposited data

Results flagged for a closer look

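In 3 of 39 sets of 4 mice, 1 mouse lay apart from the other 3 by more than Dixon's 95% limit, and chance alone sets about 1 in 20 apart. Epha4 in putative cells of mouse 3 was at 146 CPM, against 100 to 104 CPM in the other mice. Ephb2 in type IB cells of mouse 1 was at 10.6 CPM, against 6.64 to 7.29 CPM. Ephb6 in type IC cells of mouse 3 was at 15.3 CPM, against 11.3 to 11.9 CPM.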

How the results depend on the processing

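The 4 calls between type II and type I held in every alternative for Efna5 (4.09 to 5.25), Epha4 (-2.28 to -1.41) and Efnb2 (-2.92 to -1.27), and for Epha7 (0.62 to 1.61) in 15 of 16. The number of listed genes called there was 4 with each mouse left out and 5 with labels reassigned. Over all genes, 2172 to 2864 were called with a mouse left out and 3844 of 12818 with labels reassigned, against 3040 of 13005 as reported. For putative minus type I the number of listed genes was 0 to 3 with a mouse left out, 1 with cells thinned to one depth and 0 with 15 cells in every sum. All-gene calls there were 1899 to 3024, 1058 of 11043 and 222 of 4361. For IA minus IC the number of listed genes was 3 with each mouse left out and 1 with equal cells, where 3091 to 3842 and 151 of 4361 of all genes were called. For IA minus IB it was 3 to 4 with a mouse left out, 1 with cells thinned and 0 with equal cells. All-gene calls there were 1334 to 1782, 1113 of 11043 and 34 of 4361. For IB minus IC the number of listed genes was 2 with each mouse left out, 0 with equal cells and 4 with labels reassigned. All-gene calls there were 945 to 1417, 23 of 4361 and 2423 of 12818. Without the replicate block, 4 listed genes were called in type II minus type I, 2 in putative minus type I, 3 in IA minus IC, and 1 each in IA minus IB and IB minus IC. All-gene calls without the block were 3061 in type II minus type I and 2346 in putative minus type I. Over all genes, 2358, 901 and 595 were then called in IA minus IC, IA minus IB and IB minus IC, against 4200, 2027 and 1540 with it, and 11, 3 and 6 signalling partners, against 20, 12 and 12.

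Among results called as reported, directions turned in 5 cases. With equal cells, putative minus type I was -0.00937 for Epha7 and -0.0425 for Epha5, and IA minus IB was 0.125 for Efnb2. With labels reassigned, IA minus IB was 0.0636 for Efnb2 and 0.0366 for Epha7, and 71.8% of cells kept their label. The cause was not tested, except that equal cells leave fewer UMIs. Across member genes, 538 values kept their side of the threshold, 41 lost a call without turning and 9 gained one. Values not called as reported could also change sign, as for Efna5 in IB minus IC (0.15 as reported, lowest -0.82). Of all genes called between type II and type I, 50.8% were higher as reported and 61.9% with DESeq2. Over all genes, 1899 were called in putative minus type I without mouse 2, against 3031, and without mouse 3 1334 in IA minus IB and 945 in IB minus IC. Thinning called 1988, 1058, 2555, 1113 and 838 genes in the 5 comparisons in the order above, and equal cells 1287, 222, 151, 34 and 23. Between type II and type I, 1516 genes were called in cells above the median depth and 1491 without cells of 3 or more Fabp7 UMIs. Thinning moved the median of all genes there to -0.17, and leaving out type II cells with no Prph UMI moved it to -0.19. The robust dispersion estimate, added after seeing the data, called 3088 genes there against 3040, and changed no call of a listed gene. Cells above the median depth left out type II of mice 2 and 4, with 2 and 4 cells.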
